A study of Mus musculus with 3 samples.

Results

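Neutrophils of 1 of 3 single-cell RNA libraries of mouse blood, the library whose barcodes end in -1, are described here beside the neutrophils of the libraries ending in -2 and -3. The libraries are called library 1, 2 and 3. A barcode was taken as a neutrophil when it had at least 200 genes, at most 10% of its UMIs (unique molecular identifiers, each 1 captured RNA molecule) in mitochondrially encoded genes, at least 3% in S100a8 and S100a9, at least 1 UMI of Csf3r or Cxcr2, and at most 2 UMIs of Cd79a, Cd79b and Cd3e. The rule found 504 cells in library 1, of 8815 barcodes there and 22204 in all. It found 3276 cells in library 2 and 2032 in library 3.

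Neutrophils are short-lived granulocytes that leave the bone marrow, circulate in blood and reach inflamed tissue through receptors for chemokines, formyl peptides, complement and leukotrienes. They make their granule proteins in the marrow in a fixed order, so that mRNAs of late granule proteins mark cells that left recently, and these mRNAs decline while the cell ages in blood. S100a8 and S100a9 encode calprotectin, among the most abundant cytosolic proteins of the cell.

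The animals were C57/BL6J mice in 3 groups: control (Con, 0 h), sleep-deprived for 24 h (SD24h) and sleep-deprived for 48 h (SD48h). All mice were bled behind the eye under pentobarbital, red cells were lysed, and the leukocytes of 3 mice were pooled for each of the 3 libraries, for which about 7000 cells were planned. A sleep restriction condition (SASD) that the series text also names was not analysed here. The labels do not tie a barcode ending to a group, so no difference below is one between sleep-deprived and control mice. With 1 pooled library an ending there was no replicate and no test: every interval is a 95% interval for counting error alone, and animals, preparation and group cannot be told apart.

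In library 1, neutrophils were 504 of 7122 kept cells, a share of 7.08% (exact Clopper-Pearson interval 6.49% to 7.70%). Library 2 had 54.8% of 5978 cells (53.5% to 56.1%) and library 3 had 35.1% of 5785 cells (33.9% to 36.4%). Neutrophils were thus the smallest share in library 1, where 4252 cells were picked as B cells, by at least 3 UMIs of the B cell receptor genes Cd79a and Cd79b, against 1406 in library 2 and 1998 in library 3. The neutrophils of library 1 summed to 1621451 UMIs, those of library 2 to 12605275 and those of library 3 to 12080016, so the errors below come mostly from library 1. Libraries 1 and 3 had 1 neutrophil barcode in common and libraries 1 and 2 had 0, among 23 and 17 barcodes of any cell shared by those pairs.

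Markers that the rule did not use were checked against the label. Every neutrophil of library 1 had a UMI of the 18 further neutrophil markers, with a median of 55 UMIs a cell, against 118 in library 2 and 301 in library 3. Markers of eosinophils, the granulocytes most easily mistaken for neutrophils, took 0.00241%, 0.00218% and 0.00166% of the UMIs in libraries 1, 2 and 3, and the eosinophil granule genes Prg2 and Epx were at 0 UMIs in the neutrophils of all 3 libraries. The basophil protease genes Mcpt8 and Cpa3 were at 0 there too. The 16 monocyte markers took 0.0780% of the UMIs in library 1, against 0.0893% and 0.0885% in libraries 2 and 3. B cell markers went the other way: 78.6% of neutrophils had a UMI of them in library 1, against 40.4% and 41.3% in libraries 2 and 3, and they took 0.0593%, 0.0156% and 0.0110% of the UMIs. Both measured B cell markers, the immunoglobulin genes Ighm and Igkc, were past 2-fold higher in library 1; their part in the results was not tested. Ly6g, whose product is the surface antigen by which mouse neutrophils are usually sorted, was at 62 UMIs in all 504 cells of library 1.

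The edge of the rule was sparse in library 1. Of 535 cells over the S100a8 and S100a9 limit, 533 had a receptor UMI and 504 stayed below the limit on lymphocyte genes; the 29 removed last had a median of 6089 UMIs. The 21 cells just inside the limit, at 3% to 4% of S100a8 and S100a9, summed to 1718 Retnlg and 911 Mmp9 CPM, and the 16 cells just outside, at 2% to 3%, to 980 and 930. The B cell and antigen presentation gene Cd74 was at 83.8 CPM just inside and 1538 just outside.

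The RNA content of the cells differed between the libraries. Neutrophils of library 1 had a median of 2801.5 UMIs, against 3296.5 in library 2 and 5295 in library 3. B cells, picked by Cd79a and Cd79b, had medians of 3991.5, 3828.5 and 3641 UMIs in libraries 1, 2 and 3 and monocytes had 8126, 10761.5 and 11289. The order over the libraries in neutrophils was thus that of the monocytes and not that of the B cells. The genes per neutrophil were 1099, 1044.5 and 1293. After each cell was thinned to 1000 UMIs, which left out 7, 108 and 55 shallower cells, the median was 528 genes in library 1, 449 in library 2 and 406 in library 3. A fixed number of molecules was therefore spread over more genes in library 1. Of the 1000 UMIs, a median of 121, 255 and 298 were of S100a8 and S100a9 in libraries 1, 2 and 3. Most were thus left for other genes in library 1, and the part of this in the gene counts was not tested.

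S100a8 and S100a9, which the rule used, took a median of 11.96% of a neutrophil's UMIs in library 1, 25.1% in library 2 and 29.5% in library 3. In B cells, which should not make them, the medians were 0%, 0.0974% and 0.0800%, lowest in library 1. The mitochondrially encoded share was 1.19%, 0.520% and 0.812% in the neutrophils of libraries 1, 2 and 3. The part of depth, free RNA and the mitochondrial share in the results below was not tested, unless a value is given.

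**Figure D1:**
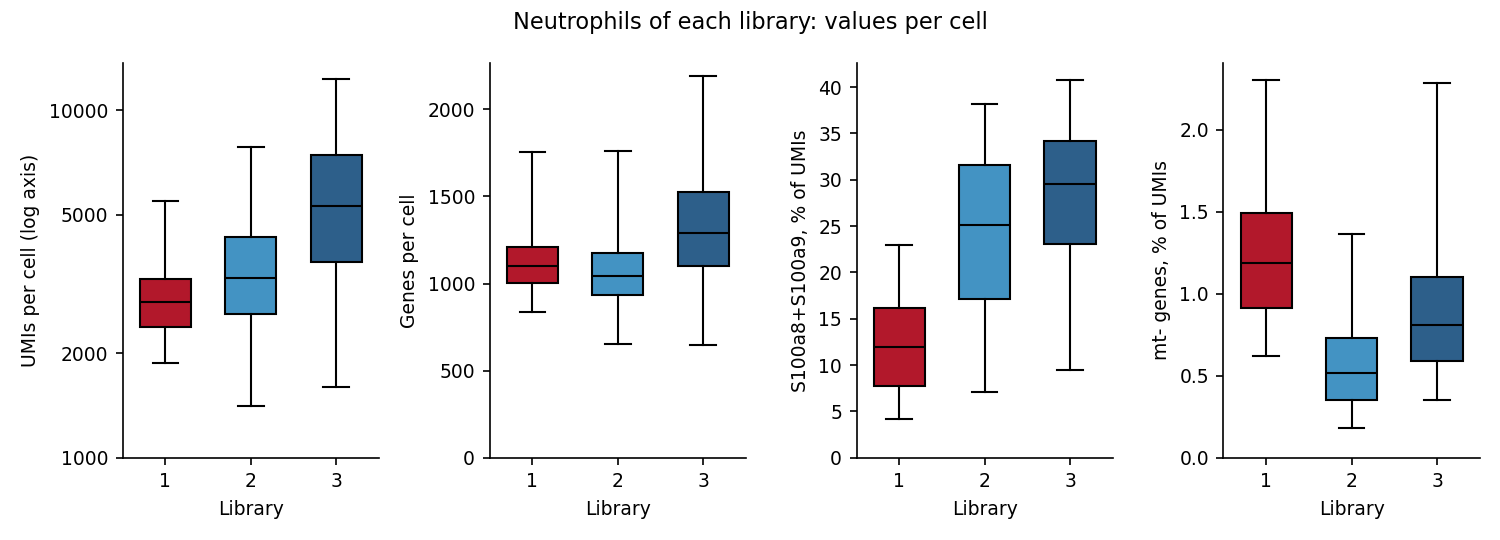
UMIs (log axis), genes, S100a8 plus S100a9 share and mitochondrially encoded share per neutrophil in libraries 1, 2 and 3, from left to right in each panel. Lines are medians, boxes the 25th to 75th percentiles and whiskers the 5th and 95th percentiles; the S100a8 plus S100a9 medians are 11.96%, 25.1% and 29.5%.

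Levels below are UMIs summed over the neutrophils of a library, as CPM (UMIs relative to all UMIs of those cells) scaled with TMM, which trims extreme ratios before it sets the scale, and are called levels. A gene was counted when library 1 was at least 2-fold above or below the nearer of libraries 2 and 3, with a mean level of at least 20; the genes of the rule and the mitochondrially encoded genes stayed out. Of 3866 genes, 94 (2.43%) were higher in library 1 and 295 (7.63%) were lower. By the same count, library 2 stood apart with 14 genes higher (0.362%) and 2 lower (0.0517%), and library 3 with 52 higher (1.35%) and 19 lower (0.491%). Library 1 thus held most of the genes that set 1 library apart from both others. Counts of listed genes with TMM below are to be read beside its 2.43% higher and 7.63% lower.

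The balance of higher and lower genes rested on the scaling. The high S100a8 and S100a9 share of libraries 2 and 3 lowers the unscaled CPM of every other gene there, and the TMM factors were 1.32, 0.924 and 0.818 for libraries 1, 2 and 3. With unscaled CPM, 373 of 3911 genes were higher and 123 lower, so that 75.2% of the counted genes were higher, against 24.2% with TMM. Unscaled counts of listed genes below are to be read beside these 373 and 123 of 3911. With S100a8 and S100a9 left out of the totals, 256 were higher and 184 lower, or 58.2% higher. The median log2 ratio of all genes was -0.17 over library 2 and -0.15 over library 3 with TMM, and 0.36 and 0.56 unscaled. Directions given below for the 24 named genes were the same under all 23 settings tried.

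The 12 lower genes were ranked by the bound of their interval nearest 0, and Prok2 led them. Prok2, a secreted chemokine-like peptide of young neutrophils, had 1 UMI in library 1, 3302 in library 2 and 7563 in library 3. The log2 ratio was -9.25 over library 2 (-14.55 to -6.77) and -10.68 over library 3 (-15.98 to -8.20). Prok2 was thus all but absent from 504 cells, while 25.5% of the cells of library 2 and 59.2% of those of library 3 had a UMI.

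Lipg, a secreted phospholipase known as endothelial lipase, was at 0, 462 and 1662 UMIs in libraries 1, 2 and 3. With library 1 set at a floor of 3 UMIs it was 28.3-fold lower than in library 2 and 120-fold lower than in library 3. The bounds of its log2 intervals nearest 0 were -4.52 and -6.61. No cell of the 504 had a UMI, while 8.58% and 38.8% of cells had one in libraries 2 and 3. By the same floor this allows up to 0.595% of cells with a UMI (3 of 504), which is not a Clopper-Pearson bound. It sets no limit on cells that express the gene. Gpr27, an orphan G protein-coupled receptor, had 1, 294 and 545 UMIs.

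Wfdc17, a small secreted protein with a whey acidic protein domain, was among the most abundant transcripts of libraries 2 and 3. Its level was 603 in library 1 (interval 571 to 637), 11268 in library 2 and 16406 in library 3. This is a log2 ratio of -4.22 (-4.30 to -4.14) over library 2 and -4.77 (-4.85 to -4.69) over library 3. The mean per cell was 2.57 UMIs in library 1, 40.1 in library 2 and 79.8 in library 3. A UMI was found in 43.5%, 96.1% and 99.5% of neutrophils, and in 10.98%, 21.2% and 20.8% of B cells; after thinning to 1000 UMIs the neutrophil shares were 28.8%, 92.4% and 97.3%. In library 1 too, Wfdc17 was thus seen in a larger share of neutrophils than of B cells, but in fewer neutrophils than in the other libraries.

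Cxcl2, the chemokine by which neutrophils and macrophages call further neutrophils, had 1 UMI in library 1, 462 in library 2 and 601 in library 3, a log2 ratio of -6.41 (-11.72 to -3.92) over library 2. Acod1, the enzyme that makes itaconate in activated myeloid cells, had 6, 1693 and 1085 UMIs, and its log2 ratio over library 3, the nearer, was -5.29 (-6.74 to -4.17). Cd14, the co-receptor for bacterial lipopolysaccharide, had 28, 2677 and 3060 UMIs. All 3 are known as genes that neutrophils and macrophages induce on contact with bacterial products. They were named for their low ratios and do not stand for all such genes. Il1b, given below, was not lowest in library 1.

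Ly6g had a level of 28.9 in library 1 (22.2 to 37.1), 416 in library 2 and 1120 in library 3, which is 14.4-fold and 38.7-fold below libraries 2 and 3. A Ly6g UMI was seen in 9.92% of neutrophils in library 1, 41.5% in library 2 and 78.2% in library 3, and in 0.0235%, 0.853% and 1.10% of B cells. Ifitm1, an interferon-induced membrane protein that restricts viral entry, had a level of 646, 6384 and 11023, and log2 ratios of -3.31 (-3.38 to -3.23) and -4.09 (-4.17 to -4.02). Plscr1, an interferon-inducible phospholipid scramblase, had 12, 1093 and 1327 UMIs.

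The remaining 2 of the 12 lower genes were Igfbp6, at rank 2, and Ggt1, at rank 9. Igfbp6, a secreted binding protein of insulin-like growth factors, had 22, 4436 and 4142 UMIs in libraries 1, 2 and 3, a log2 ratio of -5.21 (-5.89 to -4.61) over library 2. Ggt1, the cell surface enzyme that starts glutathione breakdown, had 4, 558 and 2004 UMIs. In each of the 12 genes library 1 was below both other libraries, and in 11 of them, all but Acod1, library 2 was the nearer.

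**Figure D2:**
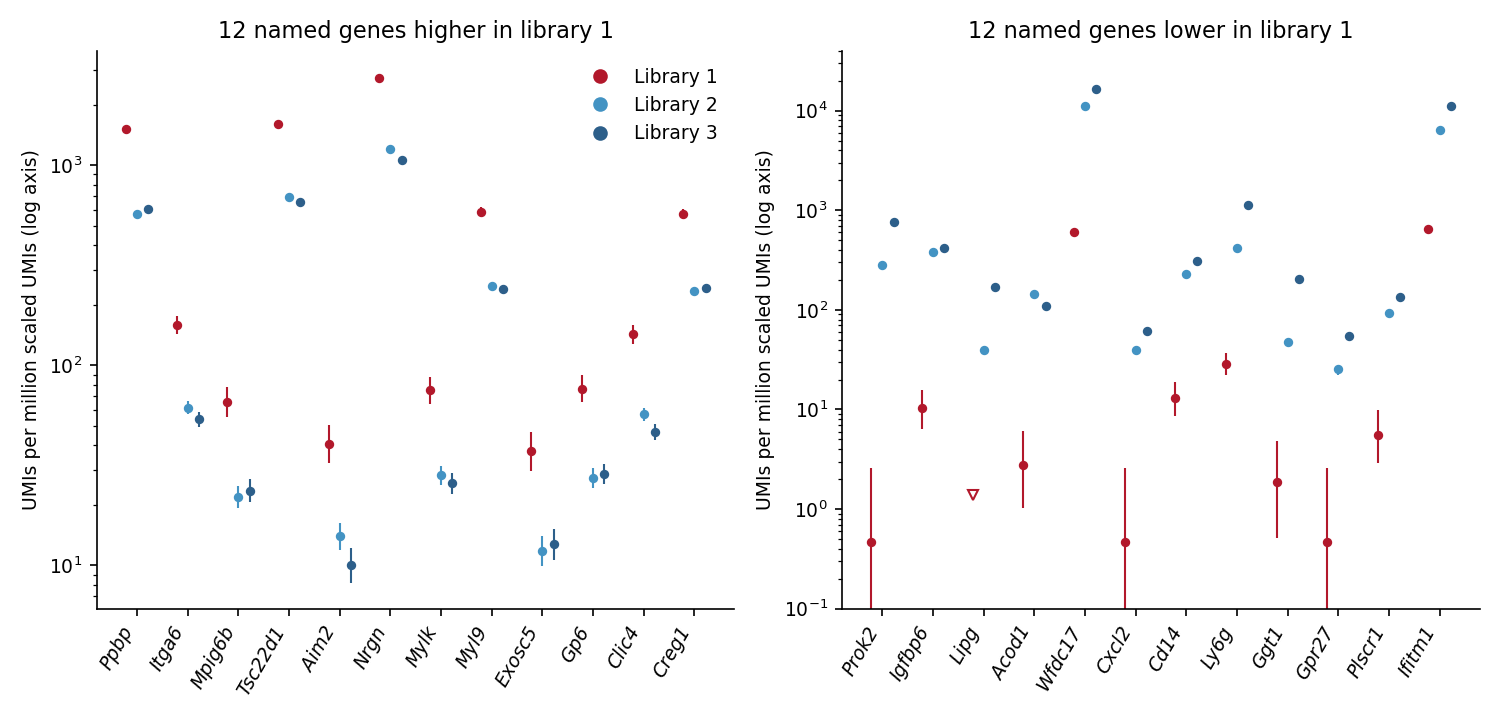
Level (scaled CPM, log axis) of the 12 named higher genes (left) and 12 named lower genes (right) in neutrophils of libraries 1, 2 and 3; bars are 95% Poisson intervals and the open triangle is the floor of 3 UMIs for Lipg at 0. Wfdc17 is at 603, 11268 and 16406, Ppbp at 1512, 568 and 605.

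Upstream sequence is shown for the one of the 12 named lower genes with the highest level, for the chemokine among the lower genes and for the gene that led the higher ones. The 250 bases before the RefSeq start are given 5′ to 3′ (RefSeq, GRCm38.p6). Wfdc17 lies on chromosome 11 and the window is chr11:83703806-83704055 on the plus strand. Cxcl2 and Ppbp lie on chromosome 5, in windows chr5:90903649-90903898 and chr5:90768268-90768517, both on the plus strand. Capitals mark a match to an NF-kappaB motif, read as GGGA, any base, TT, any base and CC.
Wfdc17: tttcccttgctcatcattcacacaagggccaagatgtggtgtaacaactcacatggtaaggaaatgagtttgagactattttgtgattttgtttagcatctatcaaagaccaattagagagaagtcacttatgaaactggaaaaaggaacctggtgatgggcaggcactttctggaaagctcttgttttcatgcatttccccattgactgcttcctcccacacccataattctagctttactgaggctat
Cxcl2: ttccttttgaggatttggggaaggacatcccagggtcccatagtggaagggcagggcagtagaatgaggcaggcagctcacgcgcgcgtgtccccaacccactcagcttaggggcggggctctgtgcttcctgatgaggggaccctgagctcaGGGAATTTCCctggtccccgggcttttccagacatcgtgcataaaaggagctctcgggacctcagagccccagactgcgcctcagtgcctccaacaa
Ppbp: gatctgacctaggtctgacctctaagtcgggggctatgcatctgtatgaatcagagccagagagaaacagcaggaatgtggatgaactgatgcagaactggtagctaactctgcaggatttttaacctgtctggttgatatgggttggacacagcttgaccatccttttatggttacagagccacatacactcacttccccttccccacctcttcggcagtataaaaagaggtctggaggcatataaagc
Both strands were searched for that motif and for an interferon response motif, GAAA, any pair of bases and GAAA. Of 32851 upstream windows of all genes, 322 (0.980%) held the NF-kappaB motif and 978 (2.98%) the interferon motif. RefSeq windows were matched for 9 of the 12 lower genes, in 13 windows, of which 1 held the NF-kappaB motif, that of Cxcl2, and 0 the interferon motif. For the higher genes 11 of 12 were matched, in 15 windows, with 0 and 1 matches, the 1 being in Mylk. No matched window of the named genes thus held both motifs, and the unmatched genes were not searched.

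Transcripts of granule proteins and of other genes high in young neutrophils were lower in library 1 as a group. Of 27 listed genes, 24 were measured, and 15 were past 2-fold lower and 0 higher, against 7.63% and 2.43% of all genes. Their median log2 ratio was -1.48 over library 2 and -2.20 over library 3, against -0.17 and -0.15 for all genes. Retnlg, a resistin-like secreted protein, had a level of 4838 in library 1, 16166 in library 2 and 38439 in library 3. Lcn2, the siderophore-binding lipocalin of specific granules, had 688, 6061 and 9163. Mmp8, the neutrophil collagenase, had 409, 2127 and 3323, and Cd177, a surface glycoprotein of young neutrophils, had 45.3, 150 and 481.

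UMIs of the specific granule genes Ltf, Camp and Ngp came mostly from single cells in library 1. Ltf (lactoferrin) had 55 UMIs and Camp (cathelicidin) 111 UMIs, all in 1 of 504 cells, so their group ratios describe that cell. Of 131 Ngp UMIs, 90.8% were in 1 cell. Ltf was rare in library 2 too, with a UMI in 0.198%, 0.244% and 4.53% of cells in libraries 1, 2 and 3. For Camp the shares were 0.198%, 1.40% and 10.1%, and for Ngp 2.18%, 21.7% and 49.9%. Cells with more than 2 UMIs of Ngp, Ltf, Camp and Chil3 numbered 8 of 504 in library 1 (1.59%, interval 0.688% to 3.10%), against 643 of 3276 in library 2 (19.6%) and 794 of 2032 in library 3 (39.1%). Without such cells the medians of the list were -1.68 and -2.23.

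Within the same list, 9 genes were not past 2-fold. Lyz2 (lysozyme) had a level of 3852 in library 1, 3640 in library 2 and 3792 in library 3, and Padi4, which citrullinates histones, had 134, 130 and 180. Mmp9, the gelatinase that neutrophils keep into late maturity, had 1222, 1771 and 2339. The difference between the libraries was thus large for Ly6g, Lcn2 and Mmp8, and small for Lyz2 and Padi4.

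Where neutrophils of all libraries were held to 3% to 20% of S100a8 and S100a9, 442, 1069 and 369 cells remained and the differences of several lists shrank. The list of granule and young neutrophil genes then had medians of -0.53 over library 2 and -1.05 over library 3, and that of 14 protease inhibitors had -0.06 and -0.18. Single genes differed in this. Values for cells with 10% to 20% of S100a8 and S100a9 are CPM without S100a8 and S100a9 in the totals, with no TMM scaling. Wfdc17 was at 782, 11054 and 16036 in such cells of libraries 1, 2 and 3, and Ifitm1 at 1204, 8000 and 11646. Ly6g was at 42.2, 233 and 684 there and Lcn2 at 1154, 5234 and 5046. For Ly6g the difference was smaller within the band: over all neutrophils, on such totals, its log2 ratios were -3.55 and -4.90 over libraries 2 and 3. Retnlg was at 8706, 6755 and 20339 within the band, and thus not lowest in library 1.

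Protease inhibitors and interferon-induced genes followed. Of 14 measured protease inhibitors, 6 were past 2-fold lower in library 1, against 4 unscaled, among them Wfdc21 with a level of 627, 4531 and 6478 in libraries 1, 2 and 3. The stefin genes Stfa1, Stfa2 and BC100530, cysteine protease inhibitors, were also lower, but these are near-identical copies among which reads may be split. Slpi, the secretory leukocyte protease inhibitor, had 2796, 3444 and 3440.

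Of 39 measured interferon-induced genes, 13 were past 2-fold lower and 0 higher, with medians of -0.59 and -1.05. With unscaled CPM 6 were lower and 2 higher. In cells of 3% to 20% S100a8 and S100a9 the medians were -0.63 and -0.69. Ifitm2 had a level of 1106, 5156 and 5561 in libraries 1, 2 and 3 and Ifitm3 had 759, 2230 and 3978. Oas3, which makes the activator of RNase L, had 53.2, 147 and 170, and Zbp1, a sensor of nucleic acids in Z form, had 17.7, 54.7 and 130. Rsad2, which encodes the antiviral protein viperin, was not past 2-fold, at 76.5, 50.6 and 73.1. Other lower members were Ifitm1, Ifi27, Oas2, Oasl2, Gbp2, Gbp7, Slfn4 and Trim30a, and 26 of the 39 were not past 2-fold.

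Receptors for chemoattractants were split. Of 13 measured, 6 were lower and 0 higher: Cxcr1, the formyl peptide receptors Fpr1 and Fpr2, the leukotriene B4 receptor Ltb4r1, and Mrgpra2a and Mrgpra2b. Fpr1 had a level of 99.9 in library 1, 313 in library 2 and 501 in library 3. Ltb4r1 had 53.2, 270 and 382. Cxcr4, the receptor that retains neutrophils in marrow and draws aged ones back, had 251, 243 and 159, and C5ar2, the second complement C5a receptor, had 149, 140 and 58.3. Neither of these was past 2-fold against the nearer library.

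Cytokine receptors had 7 of 20 measured members lower (35.0%) and 0 higher, against 7.63% and 2.43% of all genes. Il1r2, the decoy receptor of interleukin 1, had a level of 89.1, 643 and 673 in libraries 1, 2 and 3. The shared subunit Csf2rb of the receptors for GM-CSF and interleukin 3 had 169, 522 and 447, with its close copy Csf2rb2 also lower. Il4ra and Il13ra1, which form a receptor for interleukins 4 and 13, had 61.1, 311 and 284, and 93.3, 355 and 264. The median of the list was -0.81 over library 2 and -0.54 over library 3, but 0.15 over library 3 when unscaled, where 4 were lower and 1 higher. Interferon receptor genes differed among themselves, with Ifngr1 at 150, 330 and 355 and Ifnar1 at 72.3, 72.0 and 53.6.

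Innate immune receptors had 8 of 42 members lower (19.0%) and 0 higher, against 7.63% and 2.43% of all genes. Besides Cd14 they were Tlr2, Tlr4, Clec4e, Trem1, Cd33, Pirb and Lilr4b. Tlr2, the receptor for bacterial lipoproteins, had a level of 39.2, 143 and 138 in libraries 1, 2 and 3. Clec4e, a receptor for mycobacterial cord factor, had 119, 405 and 475. Tyrobp, the adaptor that many of these receptors signal through, had 4847, 5347 and 4883. The median over library 3 was -0.50 with TMM and 0.19 unscaled, and unscaled CPM gave 5 lower and 4 higher members, so the direction of this list as a whole depended on the scaling.

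Among cytokines, 3 of 16 measured genes were lower (18.75%) and 2 higher (12.5%), against 7.63% and 2.43% of all genes. Osm (oncostatin M) had a level of 13.5, 84.3 and 49.0 in libraries 1, 2 and 3 and Ccl4, a chemokine for monocytes and T cells, had 11.7, 56.6 and 25.9; Cxcl2 is given above. Il1b, the precursor of interleukin 1 beta, had 1787, 2908 and 1447, so library 1 lay between the others. The higher genes were the platelet chemokines Ppbp and Pf4. Il6 and Il10 were at 0 UMIs in all 3 libraries.

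Glycolysis genes and transcription factors were lower in smaller numbers. Of 20 glycolysis genes, 5 were lower: Gapdh, Pgk1, the glucose transporter Slc2a1, the lactate transporter Slc16a3 and Hif1a, which drives glycolysis genes under low oxygen. Gapdh had a level of 663, 1583 and 2672 in libraries 1, 2 and 3. Of 23 transcription factors, 5 were lower, with Cebpb, a factor of granulocyte maturation and emergency granulopoiesis, at 277, 1149 and 1224 and Mxd1, a MYC antagonist of late granulocytes, at 505, 1375 and 1093. The median of the transcription factors was -0.49 and -0.43 over libraries 2 and 3, but 0.02 and 0.26 unscaled, where 1 was past 2-fold lower. Unscaled, 2 of the glycolysis genes were lower and 1 was higher. Nfil3, a circadian and cytokine-responsive repressor, was the 1 of 4 measured clock genes that was lower, at 34.1, 95.4 and 87.8. Unscaled, 0 of the 4 were lower, and 0 of 5 without S100a8 and S100a9 in the totals.

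Of 12 measured genes known to be induced by glucocorticoids, 4 were lower (33.3%, against 7.63% of all genes): Fkbp5, Il1r2, Anxa1 and Lcn2. Fkbp5, an immunophilin that binds the receptor complex, had 27, 356 and 266 UMIs in libraries 1, 2 and 3. Tsc22d3, which encodes the glucocorticoid-induced leucine zipper, had a level of 287, 628 and 533, with 0.90 the smaller distance on the log2 scale and so not past 2-fold. Txnip had 814, 703 and 716. With TMM, none of 21 measured signalling genes, 9 heat shock genes and 11 NF-kappaB pathway genes was past 2-fold either way. The same held for 15 class I and 5 class II antigen presentation genes and 82 ribosomal protein genes. Of all genes, 2.43% were higher and 7.63% lower with TMM. At these shares a short list can hold no such gene without standing apart from all genes. Unscaled, 9 ribosomal protein genes, 2 signalling genes and 1 NF-kappaB pathway gene were higher, beside 373 of all 3911 genes.

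**Figure D3:**
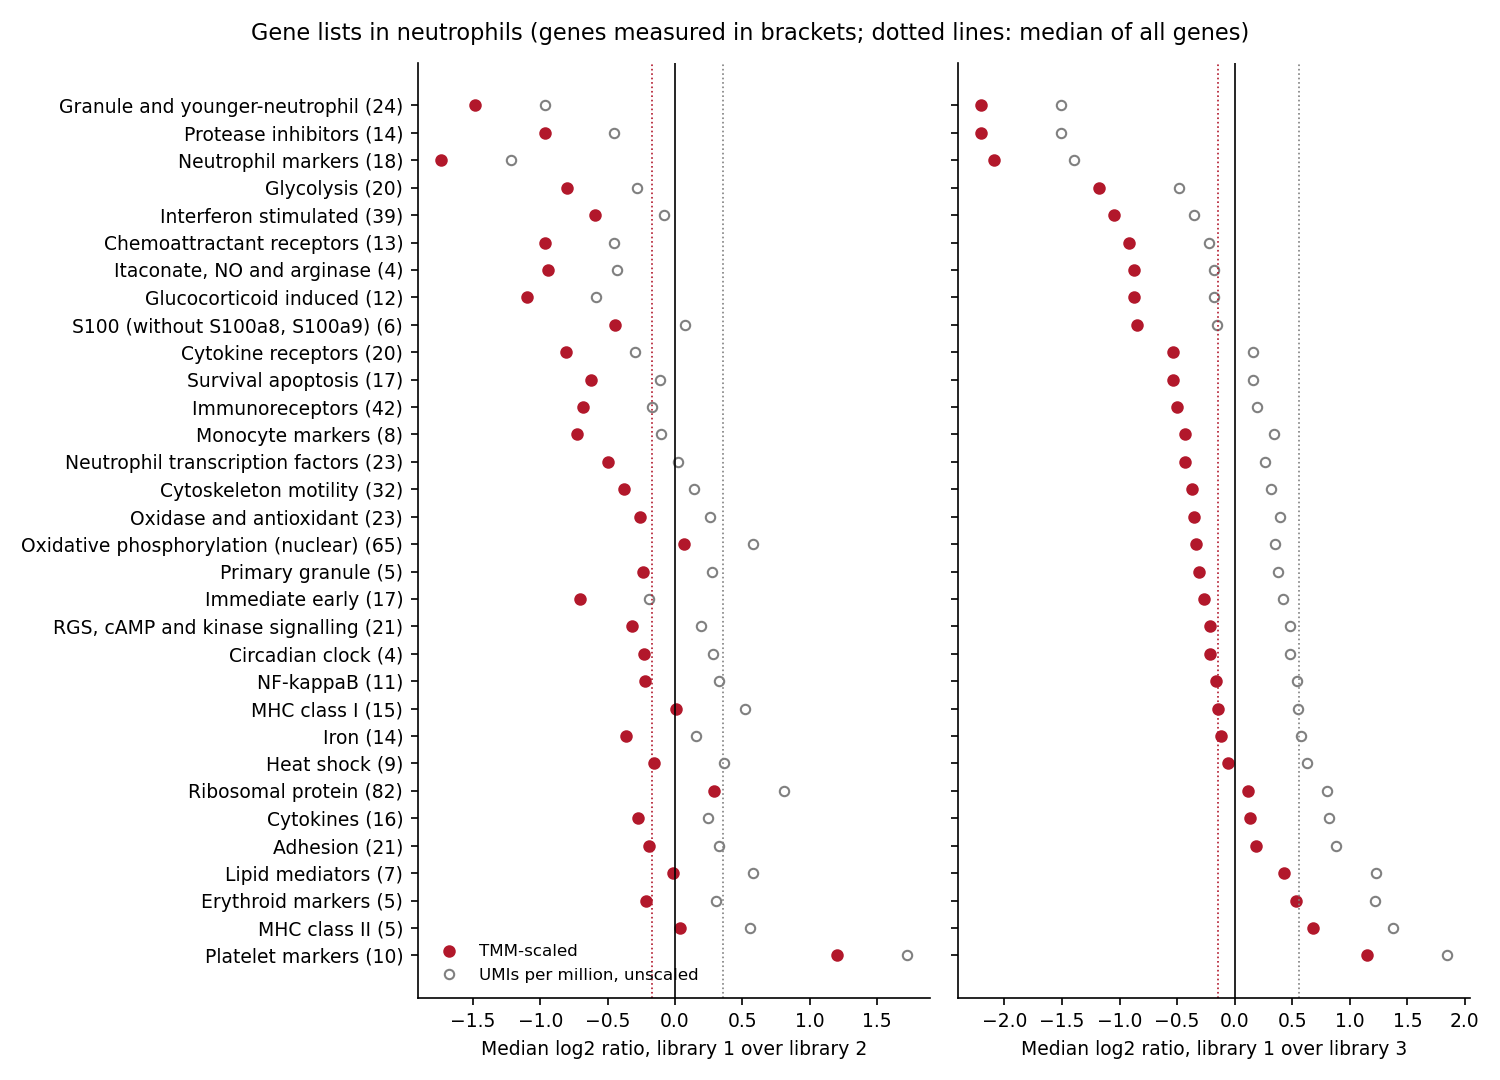
Median log2 ratio of library 1 over library 2 (left) and over library 3 (right) for gene lists with at least 4 measured members, TMM-scaled (filled) and unscaled (open); dotted lines are the medians of all genes. Granule and young neutrophil genes are at -1.48 and -2.20 and platelet markers at 1.20 and 1.15; lists near 0 change side with the scaling.

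The higher genes were led by genes of platelets. Ppbp, platelet basic protein, had a level of 1512 in library 1 (1460 to 1565), 568 in library 2 and 605 in library 3, a log2 ratio of 1.41 (1.35 to 1.47) over library 2 and 1.32 (1.26 to 1.38) over library 3. Nrgn, a calmodulin-binding protein abundant in platelets, had 2721, 1203 and 1063. Gp6, the platelet collagen receptor, had 164, 319 and 284 UMIs, a level of 76.5, 27.4 and 28.7. Mpig6b, an inhibitory receptor of platelets and megakaryocytes, had a level of 65.8, 21.97 and 23.7.

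Of the 12 named higher genes, Itga6 (a laminin-binding integrin subunit), Tsc22d1 (a transcription regulator), Mylk and Myl9 (the kinase and the light chain of non-muscle and smooth muscle myosin) and Clic4 (an intracellular channel-like protein) are also abundant in platelets. Itga6 had a level of 159, 61.4 and 53.7 in libraries 1, 2 and 3. Myl9 had 584, 250 and 242. The remaining 3 were Creg1, a lysosomal glycoprotein, at 572, 235 and 244, Aim2, a sensor of cytosolic DNA, at 40.6, 14.0 and 10.0, and Exosc5, a subunit of the RNA exosome, at 37.3, 11.8 and 12.7. The bounds that ranked these 12 genes lay between 1.13 and 1.26 on the log2 scale, so each interval was above 2-fold.

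Of 11 platelet markers, 10 were measured and 8 were past 2-fold higher in library 1, with medians of 1.20 and 1.15 over libraries 2 and 3. As mean UMIs per cell, with no scaling, 3 of 10 were past 2-fold higher. Their summed level was 12202 in neutrophils of library 1, 5410 in library 2 and 5137 in library 3. It was 7497, 3254 and 3969 in B cells of libraries 1, 2 and 3, and 6068, 2240 and 2096 in monocytes, so platelet RNA was higher in library 1 in each of these cell types. A UMI of Ppbp was found in 95.8% of neutrophils and 90.0% of B cells of library 1, against 66.9% and 59.0% in library 2 and 70.0% and 61.1% in library 3. In neutrophils with under 10 UMIs of Pf4 and Ppbp, 93, 2467 and 1338 cells, 77 genes were past 2-fold higher, of which 31 were among the 94. Of the 12 named higher genes 5 were then past 2-fold, which were Aim2, Clic4, Creg1, Mpig6b and Myl9, and of the 12 lower genes all 12. The cut was made on Ppbp, so the fall of its own ratio is not a result. It kept 93 of 504 cells in library 1, 2467 of 3276 in library 2 and 1338 of 2032 in library 3, so unlike parts of the libraries were compared.

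Adhesion genes and antioxidant genes each had a few higher members. Of all genes, 2.43% were higher and 7.63% lower. Of 21 measured adhesion genes 4 were higher, Itgb1, Itgb3, Itga2b and Pecam1, of which Itgb3 and Itga2b form the platelet fibrinogen receptor. As mean UMIs per cell, 0 of the 21 were higher, and unscaled 6 were. Of 23 oxidase and antioxidant genes 3 were higher and 2 lower, against 4 and 0 unscaled, and 0 and 0 as mean UMIs per cell. Sod1, the cytosolic superoxide dismutase, had a level of 35.0, 12.3 and 13.8 in libraries 1, 2 and 3. Cat (catalase) had 47.6, 23.6 and 23.1, and Srxn1 (sulfiredoxin) 49.5, 19.7 and 24.2. The oxidase subunit Ncf4 was lower, at 145, 339 and 368, while its partner Cybb had 157, 125 and 185.

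The 8 genes given as markers of these cells were chosen from these data, and with TMM none was past 2-fold against the nearer library. Unscaled, 3 of 8 were, Lst1, Cd101 and Cd300lb, with log2 ratios over library 2 of 1.18, 1.46 and 1.05. Cd101 was also past it without S100a8 and S100a9 in the totals, as mean UMIs per cell and in cells thinned to 1000 UMIs. Jaml, an adhesion molecule that takes part in leukocyte migration, had levels of 484, 381 and 110 in libraries 1, 2 and 3, with intervals of 455 to 514, 370 to 393 and 103 to 116. Lst1, a small membrane protein of leukocytes, had 1266, 798 and 425. Cd101, an inhibitory surface protein of mature neutrophils, had 80.3, 41.8 and 13.9, and Mpzl3, an adhesion protein, had 106, 76.6 and 26.1. In these 4 genes the order was library 1, then 2, then 3, and library 1 was further from library 3 than from library 2.

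The other 4 were closer together. Cd300lb, an activating receptor, had a level of 254, 176 and 135 in libraries 1, 2 and 3, and Ptafr, the receptor for platelet-activating factor, had 203, 172 and 112. Rgs2, which shortens G protein signals, had 705, 525 and 378. Slc40a1, the iron exporter ferroportin, had 362, 363 and 275, so libraries 1 and 2 did not differ beyond counting error with TMM (log2 ratio 0.00, interval -0.12 to 0.11), while the ratio was 0.51 unscaled and 0.29 without S100a8 and S100a9 in the totals. Counted per cell, Lst1 had a mean of 5.38, 2.84 and 2.07 UMIs and Cd101 0.341, 0.149 and 0.0674. Within cells of 10% to 20% S100a8 and S100a9, CPM was taken without S100a8 and S100a9 in the totals. Jaml was then at 846, 395 and 166 and Cd101 at 131, 50.8 and 9.24.

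The same genes were set beside other cells of the same libraries. Monocytes numbered 246, 292 and 387 in libraries 1, 2 and 3. Of the 12 higher genes, 9 were past 2-fold higher in monocytes of library 1 too and 6 in B cells. Aim2 was not among them, with log2 ratios of -0.06 and 0.14 in B cells, but it was higher in monocytes, with log2 ratios of 0.999 and 0.62. Exosc5 had -0.34 and -0.50 in monocytes. Of the 12 lower genes, 5 had at least 20 UMIs in monocytes, and Igfbp6, Wfdc17, Cd14, Plscr1 and Ifitm1 were all past 2-fold lower there as well. In B cells 6 had 20 UMIs and 5 were past 2-fold lower. Of 3448 genes measured in both neutrophils and monocytes, 1.45% were past 2-fold higher in monocytes of library 1 and 1.62% lower. Of 3082 measured in both neutrophils and B cells, 0.552% were higher in B cells and 0.487% lower.

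Ly6g, which B cells do not make, had 1 UMI in 4252 B cells of library 1, 12 in 1406 of library 2 and 22 in 1998 of library 3. The ratio in monocytes bears on Wfdc17, which monocytes also make, with 1147, 4085 and 5346 UMIs and log2 ratios of -1.36 and -1.19. Its ratio in neutrophils, -4.22 and -4.77, was larger. The part of free RNA in these ratios was not tested.

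Over all genes past 2-fold in neutrophils, 72 of the 94 higher ones were also past 1.5-fold the same way in monocytes or B cells, and 22 in neither. That is 76.6% of them, against 6.49% of all 3866 genes. Of the 295 lower ones 113 were past it in either, 151 in neither, and 42 had under 20 UMIs in 1 of these cell types. The 113 are 38.3%, against 7.35% of all genes. The count for either and that for few UMIs can share genes. The genes past it in neither are named here by the rank of the interval's bound nearest 0, a choice made after values were seen. Among the higher ones were Exosc5, Tpcn1 (a lysosomal ion channel), Arrb1 (an arrestin of G protein-coupled receptors) and Dgkd (a diacylglycerol kinase). Arrb1 had a level of 63.5 in library 1, 25.5 in library 2 and 25.7 in library 3. Ninj1, a membrane protein that ruptures dying cells, had 249, 122 and 66.0.

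Among the lower ones were Klhdc4, Steap4 (a metalloreductase), Zfp36l1 (which promotes decay of AU-rich mRNAs), Casp4 (the caspase that senses lipopolysaccharide), Cebpb, Gbp2 and Vim. Steap4 had a level of 37.8 in library 1, 306 in library 2 and 274 in library 3. Zfp36l1 had 65.8, 452 and 385, Casp4 had 37.3, 216 and 193, and Vim (vimentin) had 308, 1181 and 1531. For Zfp36l1 the log2 ratio was -2.78 over library 2 (-3.03 to -2.54) and -2.55 over library 3 (-2.80 to -2.31).

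**Figure D4:**
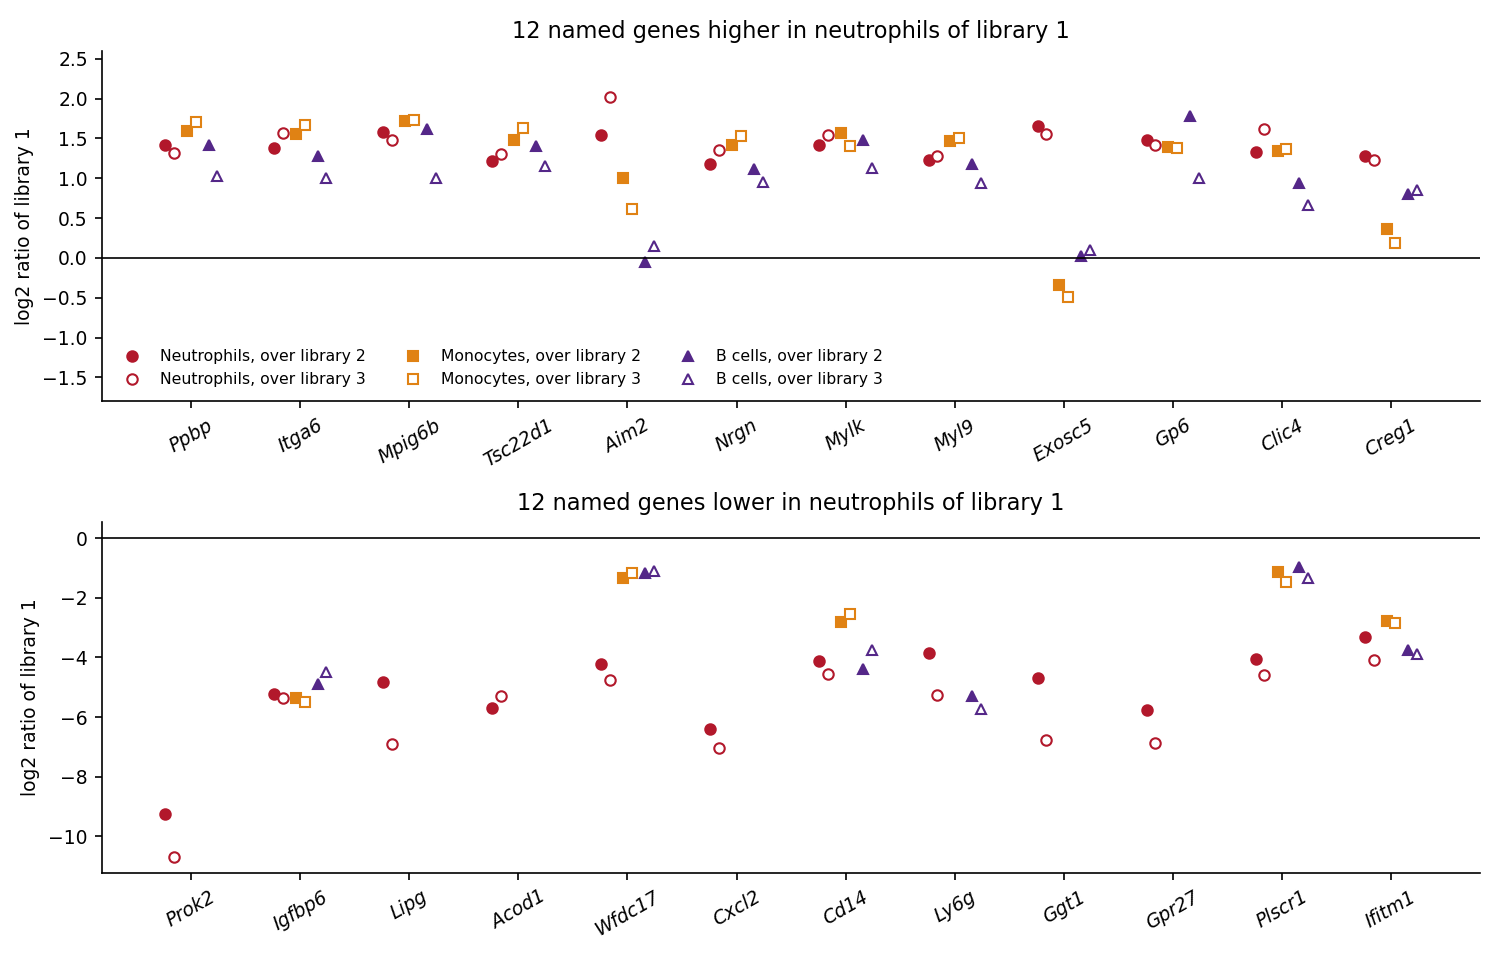
Log2 ratio of library 1 over library 2 (filled) and over library 3 (open) for the 12 named higher genes (top) and 12 lower genes (bottom) in neutrophils, monocytes and B cells; points with under 20 UMIs in monocytes or B cells are not drawn, and Lipg is set at the floor. For Ppbp the neutrophil ratios are 1.41 and 1.32, and for Wfdc17 the monocyte ratios are -1.36 and -1.19.

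The 24 named genes were also counted cell by cell. In cells thinned to 1000 UMIs, the 12 higher genes together had a median of 10 UMIs (5th to 95th percentile 2 to 21) in library 1, against 2 in library 2 (0 to 9) and 2 in library 3 (0 to 8). The 12 lower genes had a median of 1 UMI (0 to 6) in library 1, 17 in library 2 (3 to 43) and 25 in library 3 (6 to 57). None of the 12 was detected in 41.6% of cells in library 1, in 1.01% in library 2 and in 0.101% in library 3. The genes were chosen on the sums over these same cells, and genes with 10% or more of their UMIs in 1 cell were left out, so the medians describe how the difference was spread and do not support it.

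**Figure D5:**
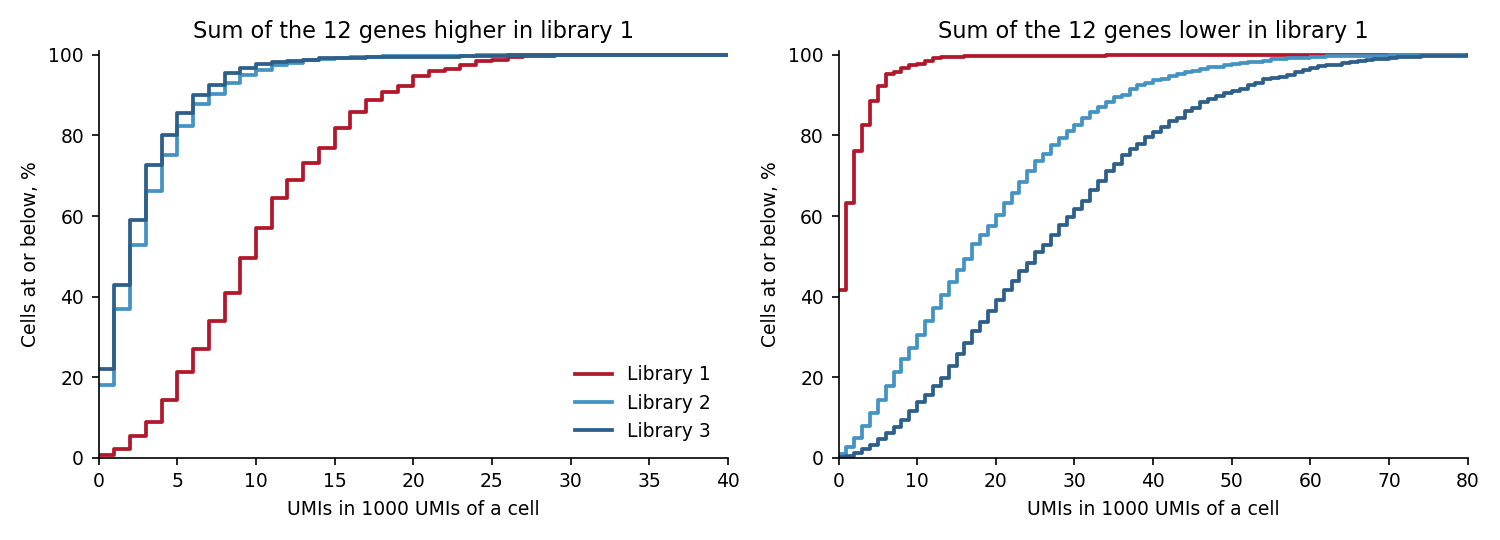
Share of neutrophils (%) with at most a given number of UMIs of the 12 named higher genes (left) or 12 lower genes (right), in cells thinned to 1000 UMIs, by library. Medians are 10, 2 and 2 UMIs for the higher and 1, 17 and 25 for the lower genes in libraries 1, 2 and 3.

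Among themselves the neutrophils of library 1 varied in few genes. Of 1356 genes with a mean of at least 0.1 UMI per thinned cell, the median variance over mean was 1.05, where counting alone gives about 1, and 27 genes were over 2. The first 10 were the haemoglobin genes Hbb-bs, Hba-a2, Hba-a1 and Hbb-bt, then S100a9, S100a8, Retnlg, Lyz2, Wfdc17 and Gm5483, a stefin family gene. One cell of 38002 UMIs, of which 20.7% were haemoglobin, held 46.9% of the Hbb-bs UMIs of library 1. S100a9 and S100a8, which the rule cut on, had 16.9 and 14.97, and Retnlg had 7.03 in library 1, 13.7 in library 2 and 11.4 in library 3. Wfdc17 had 5.62, 7.76 and 8.03, and thus varied beyond counting in each library.

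Some values moved with the depth of the cells of library 1. Split into 3 parts of 168 cells by UMIs, the shallowest had S100a8 and S100a9 at 10.4% of UMIs, the middle 13.3% and the deepest 12.5%. Cd101 was at 143, 115 and 84.3 CPM from the shallowest to the deepest, and Il1b at 2985, 2808 and 1820. Haemoglobin and other erythroid markers took 0.225%, 0.203% and 1.94% of UMIs, the last of these including the cell of 38002 UMIs.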

How the data were processed

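Blood leukocytes were profiled by droplet single-cell RNA sequencing (10x Genomics 3′ chemistry, per the labels' protocols). The deposited values are raw UMI counts per gene and barcode, not normalised. Per the file headers, Cell Ranger 6.0.2 wrote the matrix; Cell Ranger 4.0.0, Seurat 3.0, Trimmomatic 0.39, R 4.0.2 and the build GRCm38 are listed in the submitters' processing notes, so the version behind the counts is unclear. The step that separated cells from empty droplets is not stated.

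Everything else was computed here with Python 3.11.15, scipy 1.17.1 and scanpy 1.11.5. Counts were summed over the neutrophils of each barcode ending and scaled by TMM, with factors that match edgeR 4.0.16. Ratios have exact conditional intervals, sums Poisson intervals and shares Clopper-Pearson intervals, all at 95%. UMI counts limit precision most in library 1. B cells had at least 3 UMIs of Cd79a and Cd79b, no Cd3e and under 1% S100a8 and S100a9; monocytes had Csf1r and at least 2 of 6 further genes, under 3% S100a8 and S100a9 and no lymphocyte gene. The 12 named genes each way are those whose interval's bound to the nearer library lies furthest from 0, without rule genes, haemoglobin, immunoglobulin and T cell receptor segments, Xist and Y genes, unnamed models and genes with 10% or more of their UMIs in 1 cell. List examples beyond those with the largest and smallest ratio, and the genes named as past the fold in neutrophils alone, were chosen after their values were seen. The members, lists and rules were chosen with earlier results of these data known. Doublets were left in: Scrublet (expected rate 6%) called 7 of 7122 cells (0.0983%) in library 1 and so did not work there. The code was checked on sums drawn with Poisson error from 1 shared profile, with 200 of 3416 genes changed 4-fold in library 1. Of these, 100% were called in each direction. The drawn sums held no shift like that of S100a8 and S100a9, so they do not bear on the choice of scaling. Alternatives are given in the closing section.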

Additional observations from a re-analysis of the deposited data

How the results depend on the processing

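With TMM, 94 genes were higher and 295 lower in neutrophils of library 1. The counts were 373 and 123 with unscaled CPM, and 256 and 184 without S100a8 and S100a9 in the totals. A mean level of at least 5 gave 234 and 505, one of at least 50 gave 37 and 196, a ratio of 1.5 gave 241 and 658, and a ratio of 3 gave 0 and 127. Higher genes numbered 155 among cells of 3% to 20% S100a8 and S100a9, and 59 without cells over 2 UMIs of Ngp, Ltf, Camp and Chil3. In 2 of the settings chosen after seeing the data the counts moved further. Cells with under 10 UMIs of Pf4 and Ppbp gave 447 lower genes. Leaving out genes shared with monocytes or B cells gave 22 higher and 182 lower. The other settings stayed within 1.5 times in number, but not all held the same genes. Those without the 6% highest Scrublet scores, as mean UMIs per cell and without the 1% deepest cells were also chosen after seeing the data. Of the 94 higher genes, 54 were called again in cells thinned to 1000 UMIs and 54 without the 6% highest Scrublet scores. As mean UMIs per cell, 58 were. Of the 295 lower genes, 249, 290 and 213 were called again, in that order. The cause of each change was not tested, except that other level and ratio limits change which genes can count. No named higher or lower gene changed direction. A setting without any cell holding Pf4 or Ppbp was not run, since 3 neutrophils of library 1 would remain. Depth limits genes at few UMIs in library 1, such as Prok2, Cxcl2 and Gpr27, whose intervals are wide. No paired analysis was possible because no barcode ending is tied to a sample and each group has 1 library.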
